A study of Mus musculus with 24 samples.

Results

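The miR-199 and miR-214 family was followed in mouse lung after irradiation of the chest. It comprises mmu-miR-199a-5p, mmu-miR-199a-3p, mmu-miR-199b-5p, mmu-miR-199b-3p, mmu-miR-214-3p and mmu-miR-214-5p, chosen by name. All 6 rows were present in the table of each time point, among 1657 miRNAs at day 14, 1707 at day 90 and 1767 at day 180. miR-199a-3p and miR-199b-3p have the same mature sequence and were taken as 1 measure, called miR-199-3p here, which leaves 5 measures among 1476 miRNAs common to the 3 tables. The Radiation groups were C57BL/6 mice given 15 Gy of 225 kV X-rays to the whole thoracic cavity, and the Control groups were mice of the same strain. The mice were 6 to 8 weeks old when they were divided into groups. Lungs of each group were taken at day 14, day 90 and day 180, with 4 small RNA libraries per group and 24 in all. No mutant allele or further agent is named in the labels, and the handling of the Control mice is not given. Since nothing in the labels ties each library to its own animal, the p-values here measure the spread between libraries, which may be technical.

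A miRNA hairpin is cut into a 5p and a 3p strand, either of which can be loaded into an Argonaute protein and guide it to messenger RNAs that pair with the seed, bases 2 to 8 of the strand. In the mouse, miR-199a-2 and miR-214 are made from the long noncoding transcript Dnm3os, which lies antisense within the dynamin gene Dnm3 and is active in mesenchymal cells. In human lung fibroblasts miR-199a-5p is known to be raised by TGF-beta and to repress caveolin-1, a brake on TGF-beta signalling.

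RefSeq entries of build GRCm38.p6 matched 5 of the 6 names and are shown because the shared 3p sequence decides how its reads could be counted and because each strand has its own seed. Capitals mark the seed.
miR-199a-5p: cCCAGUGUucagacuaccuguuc
miR-199a-3p: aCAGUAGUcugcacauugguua
miR-199b-3p: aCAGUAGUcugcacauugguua
miR-214-5p: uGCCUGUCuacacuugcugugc
miR-214-3p: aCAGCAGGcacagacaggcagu
miR-199a-3p and miR-199b-3p differed at 0 bases, and the sequence occurs 3 times in the table of mature miRNAs, in the hairpins Mir199a-1, Mir199a-2 and Mir199b. The matched strands carried 4 different seeds. Those of the miR-199 3p strand and of miR-214-3p differed at 2 of 7 positions.

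The hairpins Mir199a-2 and Mir214 lie 5444 bases apart on the plus strand of chromosome 1, at chr1:162217814-162217923 and chr1:162223368-162223477 (GRCm38.p6). Both overlap an exon of Dnm3os and no exon of Dnm3, which runs on the other strand. They are shown to place the strands in the hairpins of Dnm3os, and capitals mark the 5p strand, then the 3p strand.
Mir199a-2: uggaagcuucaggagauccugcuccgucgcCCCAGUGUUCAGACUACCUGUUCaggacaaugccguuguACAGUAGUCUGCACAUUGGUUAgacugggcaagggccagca
Mir214: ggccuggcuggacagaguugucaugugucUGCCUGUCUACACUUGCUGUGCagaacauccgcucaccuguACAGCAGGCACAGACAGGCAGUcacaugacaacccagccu
Mir199a-1 lies at chr9:21496495-21496564 on the minus strand, antisense to Dnm2, and Mir199b at chr2:32318460-32318569 on the plus strand, antisense to Dnm1. Neither overlaps an exon of these dynamin genes.

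Levels are given as CPM, counts scaled to 1000000 per library with TMM scaling within a day. The libraries held 2832205 to 3695133 miRNA counts. The 5 measures together took 0.317% of the counts in Radiation library 1 of day 180 (Wilson 95% interval 0.31 to 0.323%) and 1.607% in Radiation library 4 of day 180 (interval 1.594 to 1.62%), the lowest and the highest of the 24 libraries. These intervals cover counting error only, since no use of molecular identifiers is stated. Radiation library 1 of day 180 stood apart. It had the lowest total, and its median rank correlation with the other libraries of its day was 0.915, against 0.943 to 0.972 for the other 7. Day 180 values of the 5 measures and of the lists of other miRNAs that lead a statement are therefore also given without it.

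None of the 5 measures passed the adjusted threshold of 0.05 in edgeR's quasi-likelihood test with Benjamini-Hochberg adjustment at any day. At day 14 the test called 0 of 498 miRNAs (0%), at day 90 it called 2 of 557 (0.359%) and at day 180 it called 0 of 551 (0%). At an unadjusted p under 0.05 these counts were 25 (5.02%), 70 (12.6%) and 101 (18.3%) miRNAs, and DESeq2 called 1, 19 and 29. miR-199-3p at days 14 and 90 and miR-199b-5p at day 180 had unadjusted p-values under 0.05, all with lower values in Radiation lungs.

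mmu-miR-199a-5p, the most abundant of the 5 measures at days 90 and 180, was close to equal in the groups at day 14 and averaged more in Radiation lungs at days 90 and 180. At day 14 it had 4120, 4690, 5500 and 4140 CPM in Radiation libraries, against 3620, 6060, 4180 and 4730 CPM in Control libraries. At day 90 it had 5670, 5770, 7340 and 6330 CPM in Radiation libraries, against 6060, 5200, 4440 and 6030 CPM in Control libraries. The groups overlapped at both days. At day 180 it had 2550, 6470, 8180 and 11000 CPM in Radiation libraries, against 5230, 5470, 5550 and 5360 CPM in Control libraries. Of the Radiation libraries of day 180, 3 lay above every Control library and library 1 lay below every Control library. The Radiation mean was 7060 ± 3550 CPM and the Control mean 5400 ± 136 CPM at that day (SD, n = 4 each). The log2 fold changes were -0.01 ± 0.17 (SE) at day 14, 0.21 ± 0.13 at day 90 and 0.39 ± 0.35 at day 180, with adjusted p-values of 0.991, 0.635 and 0.578 in edgeR's quasi-likelihood test. Without Radiation library 1 the day 180 value was 0.65 with an adjusted p of 0.0573 in that test. At day 14 the sign was not fixed, and leaving out single libraries gave values of -0.09 to 0.15.

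miR-199-3p, the 3p strand of both Mir199a hairpins and of Mir199b, averaged less in Radiation lungs at each day. At day 14 it had 3910, 3580, 4260 and 4290 CPM in Radiation libraries, against 5480, 5920, 4720 and 4170 CPM in Control libraries. At day 90 it had 2280, 2070, 2120 and 1870 CPM in Radiation libraries, against 2270, 2750, 2640 and 3520 CPM in Control libraries. At both days only the lowest Control library reached into the Radiation range. The day 180 libraries had 551, 1230, 1540 and 1800 CPM in Radiation libraries, against 1790, 2120, 1460 and 2290 CPM in Control libraries. Radiation library 1 was lowest there, and the groups overlapped. The log2 fold changes were -0.34 ± 0.13 (SE, adjusted p = 0.86), -0.42 ± 0.15 (adjusted p = 0.28) and -0.58 ± 0.34 (adjusted p = 0.406) at days 14, 90 and 180 by edgeR's quasi-likelihood test, and the unadjusted p-values of that test were 0.0276, 0.0195 and 0.122. Without Radiation library 1 the day 180 value was -0.34 (adjusted p = 0.305, same edgeR test).

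Of the 5 measures, only mmu-miR-199b-5p, made from the separate Mir199b hairpin, had groups that did not overlap, and only at day 180. Its level at day 180 was 282, 323, 327 and 219 CPM in Radiation libraries, against 470, 481, 401 and 406 CPM in Control libraries. All 4 Radiation libraries lay below all 4 Control libraries, as they did for 35 of the 551 miRNAs tested (6.35%), and 11.8% of miRNAs had groups that did not overlap in either direction, beside 2.41% at day 14 and 7.54% at day 90. The Radiation mean was 288 ± 50 CPM and the Control mean 440 ± 42 CPM (SD, n = 4 each), a log2 fold change of -0.61 ± 0.24 (SE) with an unadjusted p of 0.0274 and an adjusted p of 0.255 in edgeR's quasi-likelihood test. An exact two-sided permutation test of the log2 CPM values gave 0.0286, the smallest p that 4 against 4 libraries allow. Without Radiation library 1 the value was -0.61 (adjusted p = 0.12, edgeR).

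At day 14 miR-199b-5p had 289, 296, 336 and 308 CPM in Radiation libraries, against 529, 512, 321 and 321 CPM in Control libraries. Control libraries 1 and 2 were high and the other 2 lay within the Radiation range. At day 90 it had 413, 473, 587 and 392 CPM in Radiation libraries, against 432, 401, 400 and 1180 CPM in Control libraries. Control library 4 alone exceeded all the others. The log2 fold changes were -0.45 ± 0.21 (SE, adjusted p = 0.917) at day 14 and -0.37 ± 0.36 (adjusted p = 0.749) at day 90 by edgeR's quasi-likelihood test. Without Control library 4 the day 90 value was 0.17, so its sign rested on that library.

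**Figure D1:**
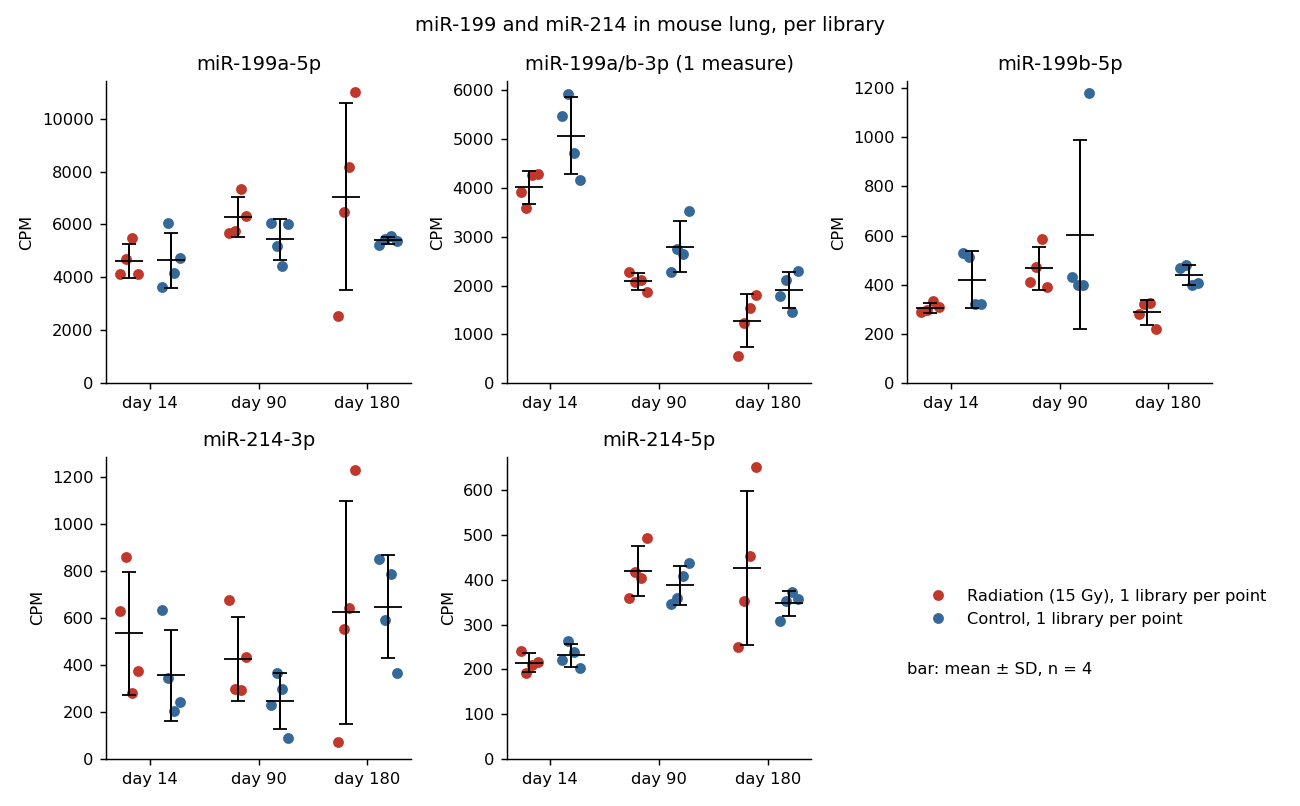
CPM of each measure (vertical axis) in each library at days 14, 90 and 180, with Radiation libraries in red left of Control libraries in blue and bars for the mean ± SD of 4 libraries. miR-199b-5p at day 180 lay between 219 and 327 CPM in Radiation libraries and between 401 and 481 CPM in Control libraries, and miR-199a-5p at day 180 spread from 2550 to 11000 CPM in Radiation libraries.

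mmu-miR-214-3p, a strand of the hairpin next to miR-199a-2 in Dnm3os, was the most variable of the measures. At day 14 it had 629, 859, 279 and 374 CPM in Radiation libraries, against 634, 344, 206 and 244 CPM in Control libraries. At day 90 it had 676, 300, 292 and 434 CPM in Radiation libraries, against 231, 367, 300 and 88.1 CPM in Control libraries. Each group spread more than 2-fold at both days, and the groups overlapped. The level at day 180 was 73.5, 552, 644 and 1230 CPM in Radiation libraries, against 850, 592, 787 and 366 CPM in Control libraries. Both the lowest and the highest library of that day were Radiation libraries. The log2 fold changes were 0.58 ± 0.44 (SE, adjusted p = 0.92), 0.79 ± 0.42 (adjusted p = 0.507) and -0.05 ± 0.64 (adjusted p = 0.977) at days 14, 90 and 180 by edgeR's quasi-likelihood test. At day 180 the value was 0.30 without Radiation library 1 (adjusted p = 0.595, edgeR), so its sign rested on that library.

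mmu-miR-214-5p, the other strand of that hairpin, varied less. It had 193 to 242 CPM in Radiation libraries and 202 to 264 CPM in Control libraries at day 14, and 360 to 494 CPM in Radiation libraries and 345 to 437 CPM in Control libraries at day 90. At day 180 it had 249, 353, 453 and 652 CPM in Radiation libraries, against 307, 353, 372 and 358 CPM in Control libraries. The Radiation libraries of day 180 lay on both sides of the narrow Control range, with library 1 lowest and library 4 highest. The log2 fold changes were -0.10 ± 0.16 (SE), 0.11 ± 0.17 and 0.30 ± 0.31 at days 14, 90 and 180, with adjusted p-values of 0.942, 0.898 and 0.626 in edgeR's quasi-likelihood test. Without Radiation library 1 the day 180 value was 0.47 (adjusted p = 0.219, edgeR), and without Radiation library 4 the day 90 value was -0.01.

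In these bulk samples, fewer cells of a type and less RNA per cell cannot be told apart. The middle 90% of all miRNAs tested ran from -0.49 to 0.66 on the log2 fold scale at day 14, from -0.60 to 0.82 at day 90 and from -0.85 to 1.30 at day 180, and all 5 measures lay inside it at each day. The median of all miRNAs was 0.13 at day 180, and it was 0.09 to 0.15 under the other scalings. The 95% interval of the day 180 log2 fold change ran from -0.48 to 1.25 for miR-199a-5p, from -1.41 to 0.26 for miR-199-3p and from -1.19 to -0.03 for miR-199b-5p. It ran from -1.61 to 1.50 for miR-214-3p and from -0.46 to 1.05 for miR-214-5p. The intervals of miR-199-3p, miR-199b-5p and miR-214-3p hold a 2-fold fall, and those of miR-199a-5p, miR-214-3p and miR-214-5p a 2-fold rise.

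**Figure D2:**
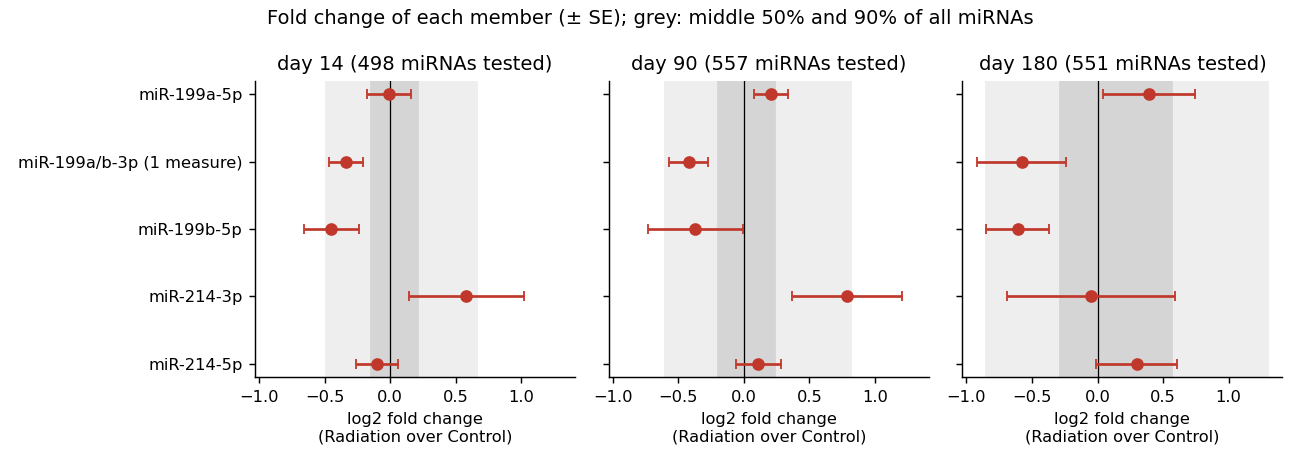
Log2 fold change of Radiation over Control for each measure (horizontal axis, points ± SE) at the 3 days, with grey bands for the middle 50% and 90% of all 498, 557 and 551 miRNAs tested. miR-199-3p and miR-199b-5p lie left of 0 at each day (-0.34, -0.42 and -0.58 for miR-199-3p), and all points lie inside the 90% band.

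Whether the radiation effect differed between days was tested in 1 fit of all 24 libraries. No measure passed, with differences of log2 fold change of -0.71 to 0.45 and adjusted p-values of 0.645 to 0.999 in edgeR's quasi-likelihood test. That fit called 0 of 623 miRNAs (0%) in each of the 3 contrasts, while 27 (4.33%), 75 (12%) and 96 (15.4%) had an unadjusted p under 0.05 for day 90 minus day 14, day 180 minus day 14 and day 180 minus day 90. DESeq2 called 1, 3 and 8. The contrasts of different days share libraries of the days they have in common.

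The 5p and 3p strands of miR-199 were compared within libraries, where scaling plays no part. This is not a ratio within 1 hairpin, since miR-199a-5p comes from 2 hairpins and miR-199-3p from 3, Mir199b included, and miR-199b-5p was left out. miR-199a-5p over miR-199-3p was higher on average in Radiation lungs at each day, and at day 180 the groups did not overlap. At day 14 the log2 ratio was 0.07, 0.39, 0.37 and -0.05 in Radiation libraries, against -0.60, 0.04, -0.18 and 0.18 in Control libraries. At day 90 it was 1.31, 1.48, 1.79 and 1.76 in Radiation libraries, against 1.42, 0.92, 0.75 and 0.78 in Control libraries. Only Control library 1 reached into the Radiation range at day 90. At day 180 it was 2.21, 2.39, 2.41 and 2.61 in Radiation libraries, against 1.55, 1.37, 1.93 and 1.23 in Control libraries. All 4 Radiation libraries lay above all 4 Control libraries there, as they did for 9 of 135 pairs of strands matched by name (6.67%). In either direction the groups did not overlap for 0.826%, 4.32% and 8.89% of these pairs at days 14, 90 and 180. In counts, miR-199a-5p was 4.63 to 6.12 times miR-199-3p in Radiation libraries and 2.34 to 3.81 times in Control libraries at day 180.

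The differences of the mean log2 ratio were 0.33, 0.62 and 0.89 at days 14, 90 and 180, with exact permutation p-values of 0.143, 0.0571 and 0.0286, two-sided. The last is the smallest that 4 against 4 libraries allow. Adjusted over the 12 ratio tests by Benjamini-Hochberg they were 0.371, 0.343 and 0.343, so none passed, and in this design the 12 tests can pass only if several reach the smallest p together. Ordered by the size of this difference among all pairs of strands matched by name, miR-199a-5p over miR-199-3p stood at place 34 of 121, 22 of 139 and 29 of 135 at days 14, 90 and 180. With miR-199b-5p added to the 5p count, an alternative chosen after seeing the data, the differences were 0.30, 0.58 and 0.85 (exact permutation p of 0.143, 0.0571 and 0.0286). At day 180 that log2 ratio was 2.36 to 2.64 in Radiation libraries and 1.33 to 2.03 in Control libraries. The day 180 difference of miR-199a-5p over miR-199-3p was 0.95 without Radiation library 1 and 0.79 to 1.02 over all single libraries left out. The day 14 and day 90 differences kept their sign when any single library was left out, at 0.18 to 0.44 and 0.55 to 0.77.

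**Figure D3:**
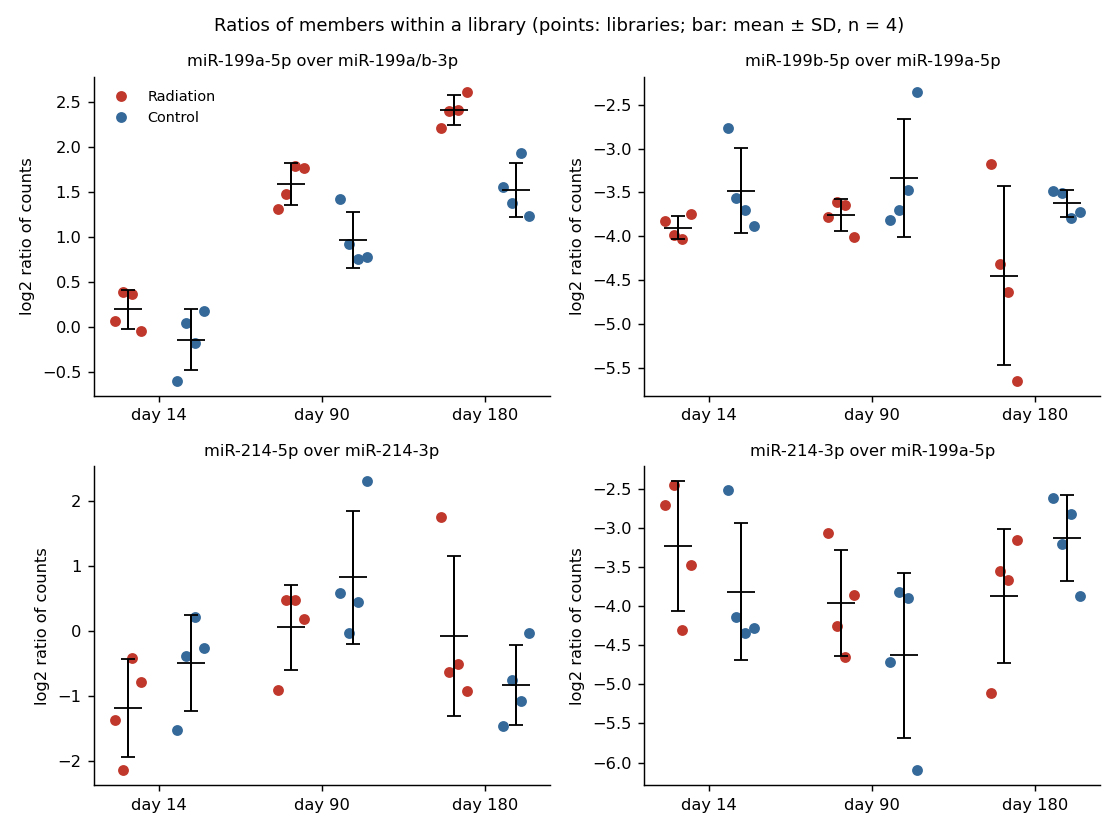
Log2 ratio of counts within each library (vertical axis) for 4 pairs of measures at the 3 days, Radiation libraries in red left of Control libraries in blue, with bars for the mean ± SD of 4 libraries. miR-199a-5p over miR-199-3p at day 180 was 2.21 to 2.61 in Radiation libraries and 1.23 to 1.93 in Control libraries, and it stood higher at day 180 than at day 14 in both groups.

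miR-199a-5p over miR-199-3p also differed between time points, in both groups. Its mean was 0.19 ± 0.22, 1.59 ± 0.23 and 2.40 ± 0.16 in Radiation lungs and -0.14 ± 0.34, 0.97 ± 0.31 and 1.52 ± 0.30 in Control lungs at days 14, 90 and 180 (SD, n = 4 each). The change of the mean, day 180 minus day 14, was 2.21 in Radiation lungs, at place 11 of 157 pairs of strands by size, and 1.66 in Control lungs, at place 16 of 157. The median size of this change over all pairs was 0.67 in Radiation lungs and 0.46 in Control lungs. On a scale set over all 24 libraries, miR-199-3p averaged 4450 ± 419, 1880 ± 122 and 1240 ± 530 CPM in Radiation lungs and 5670 ± 788, 2690 ± 543 and 1840 ± 436 CPM in Control lungs at days 14, 90 and 180. miR-199a-5p averaged 5100 ± 681, 5680 ± 840 and 6850 ± 3520 CPM in Radiation lungs and 5240 ± 1340, 5210 ± 742 and 5170 ± 287 CPM in Control lungs at those days. miR-199-3p libraries of days 90 and 180 all lay below those of day 14 in the same group, while those of miR-199a-5p overlapped across days. Each day has its own deposited table, and the tables were not made alike, so day, table and sequencing of a day cannot be told apart.

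The other ratios showed no separation. For miR-199b-5p over miR-199a-5p, which compares paralogues from different hairpins, the difference of the mean log2 ratio was -0.42, -0.43 and -0.83 at days 14, 90 and 180 (exact permutation p of 0.114, 0.286 and 0.171, adjusted 0.371 each). At day 180 that ratio was -3.18, -4.32, -4.64 and -5.65 in Radiation libraries, against -3.48, -3.51, -3.79 and -3.72 in Control libraries. Radiation libraries 2 to 4 lay below every Control library and library 1 lay above, and without library 1 the difference was -1.25. For miR-214-5p over miR-214-3p the difference was -0.69, -0.77 and 0.76 at days 14, 90 and 180 (exact permutation p of 0.257, 0.371 and 0.371, adjusted 0.371 each). For miR-214-3p over miR-199a-5p it was 0.59, 0.67 and -0.74 (exact permutation p of 0.371, 0.371 and 0.2, adjusted 0.371 each). Of these 2 strands, miR-199a-5p comes from Mir199a-1 as well as from Mir199a-2, so the ratio is not one within the Dnm3os transcript. The day 180 differences of these last 2 ratios were 0.14 and -0.33 without Radiation library 1.

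The reads of the shared 3p sequence were assigned differently at day 180. The names miR-199a-3p and miR-199b-3p carried identical counts in all 16 libraries of days 14 and 90, while at day 180 nearly all reads of a library went to 1 of the 2 names, and not to the same name in each library. miR-199a-3p received 99.55%, 99.7%, 99.5% and 3.05% of them in Radiation libraries 1 to 4, against 1.44%, 0.429%, 0.32% and 98.9% in Control libraries 1 to 4. The Wilson 95% interval was 2.66 to 3.497% in Radiation library 4 and 98.657 to 99.131% in Control library 4. In 3 of 4 Radiation libraries the reads stood under miR-199a-3p, and in 3 of 4 Control libraries under miR-199b-3p. Kept as 2 rows, mmu-miR-199a-3p had a log2 fold change of 0.55 and miR-199b-3p one of -1.60 at day 180 (adjusted p of 0.887 and 0.672, edgeR's quasi-likelihood test), against -0.58 for their sum.

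**Figure D4:**
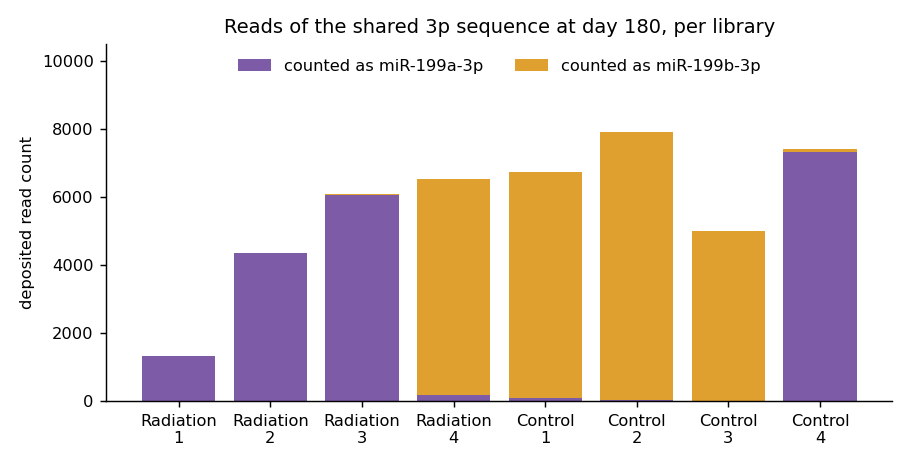
Deposited counts of the shared 3p sequence in each library of day 180 (vertical axis), stacked by the name they were given, Radiation libraries left of Control libraries. Each bar is almost wholly of 1 colour, miR-199a-3p in Radiation libraries 1 to 3 and Control library 4 and miR-199b-3p in the other 4.

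How alike the measures were was described by Pearson's correlation over the 24 libraries of log2 CPM after the mean of each of the 6 groups was subtracted, with no p. These points share library scaling. miR-199a-5p and miR-199-3p had a correlation of 0.777, place 18 of 622 among the miRNAs most like miR-199a-5p, and miR-199a-5p and miR-214-5p had 0.761. miR-214-5p and miR-214-3p, strands of the same hairpin, had 0.392. miR-199b-5p had 0.0829 with miR-199a-5p and -0.391 with miR-214-3p. The middle 90% of all pairs of miRNAs ran from -0.508 to 0.536. Without Radiation library 1 of day 180 the first correlation was 0.581, that of miR-199a-5p with miR-214-5p 0.65 and that of the miR-214 strands 0.0943.

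The 5 miRNAs most like the mean of miR-199a-5p, miR-199-3p, miR-199b-5p and miR-214-3p were miR-212-3p (0.938), miR-132-3p (0.934), miR-342-3p (0.903), miR-182-5p (0.872) and miR-674-3p (0.87) of 618 compared. miR-214-5p was not in this mean. Without Radiation library 1 of day 180 these correlations were 0.837, 0.875, 0.747, 0.723 and 0.735. miR-182-5p, which is also in the list of epithelial miRNAs, was the miRNA most like miR-199a-5p alone (0.942 over the 24 libraries).

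Among 12 other miRNAs associated with mesenchymal cells or fibroblasts, 0 were called in either direction at any day by edgeR's quasi-likelihood test. Over all miRNAs tested, 0 of 498, 2 of 557 (0.359%) and 0 of 551 were called at days 14, 90 and 180, so this count says little about the list. At day 180, 9 of the 12 had a log2 fold change above 0, beside 325 of the 551 miRNAs tested. The median of the 12 was 0.28, beside 0.13 over all miRNAs tested. Leaving out Radiation library 1 was a setting chosen for the lists after seeing the data. In it, 5 of the 12 were above 0, beside 288 of 574 miRNAs. The median of the 12 was then -0.07, beside 0 over all miRNAs, so the direction of the list rested on that library. The most abundant were miR-22-3p, miR-143-3p and miR-99a-5p, with log2 fold changes of 0.14 ± 0.16, 0.06 ± 0.15 and 0.13 ± 0.21 (SE), and of -0.05, -0.10 and -0.14 without that library. Radiation libraries lay above all Control libraries for miR-127-3p, miR-10b-5p and miR-409-3p and below them for miR-145a-5p, which were picked out after their values were seen. Over all miRNAs tested, 5.44% had all Radiation libraries above and 6.35% had all below. Their log2 fold changes were 1.01 ± 0.36, 0.98 ± 0.28, 1.19 ± 0.32 and -0.86 ± 0.26, and their adjusted p-values were 0.255, 0.171, 0.159 and 0.213 in that test. The log2 fold changes were 0.49, 0.83, 0.87 and -0.72 without Radiation library 1. The summed level of the 12 was 164000 CPM in Radiation library 1 of day 180 and 97300 to 107000 CPM in Radiation libraries 2 to 4, against 104000 to 119000 CPM in the Control libraries of that day. The TMM-scaled sum over all miRNAs tested was also highest in Radiation library 1, at 1170000 CPM against 975000 to 1050000 CPM in Control libraries. The 5 measures summed to 3700, 8930, 11100 and 14900 CPM in Radiation libraries 1 to 4 of day 180, against 8560 to 9010 CPM in the Control libraries. The library with the highest sum of the list had the lowest sum of miR-199 and miR-214, and in whole lung the name mesenchymal could not be checked further.

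Of the lists for lung fibrosis, 8 of 9 promoting miRNAs and all 13 restraining miRNAs were tested, and 0 were called at any day. Over all miRNAs tested, 0%, 0.359% and 0% were called at days 14, 90 and 180. At day 180 the medians of the promoting and restraining lists were 0.45 and -0.25, beside 0.13 over all miRNAs tested. Above 0 were 7 of 8 promoting miRNAs, and below 0 were 9 of 13 restraining miRNAs. Of all 551 miRNAs tested, 325 lay above 0 and 226 below. Without Radiation library 1 the medians were 0.54 and -0.25, beside 0 over all miRNAs. Then 6 of 8 were above 0 and 12 of 13 below 0, beside 288 above and 286 below of all 574. Of the 8 promoting miRNAs, 2 had all 4 Radiation libraries above the Control libraries and 1 had all 4 below. Of the 13 restraining miRNAs, 0 had all 4 above and 1 had all 4 below, let-7d-5p. The shares over all miRNAs tested were 5.44% above and 6.35% below. miR-21a-5p, a miRNA raised in fibrotic lung, was above with a log2 fold change of 0.44 ± 0.13 (SE, adjusted p = 0.173 by edgeR), and so was miR-155-5p with 1.19 ± 0.42 (adjusted p = 0.255). Without Radiation library 1 these fold changes were 0.44 and 1.35. The 1 promoting miRNA below was miR-145a-5p, which is in this list as well as in the mesenchymal one. No miRNA of the endothelial, epithelial, haematopoietic or stratified epithelium lists was called at any day. In the striated muscle list 1 of 7 was called, miR-133b-3p, at a mean of 9.26 ± 1.76 CPM over the Radiation libraries and 1.63 ± 0.753 CPM over the Control libraries of day 90 (SD, n = 4 each, adjusted p = 0.0212 by edgeR's quasi-likelihood test), 1 of the 2 calls among 557 miRNAs (0.359%). It was not called with the replicate block (adjusted p = 0.102), with all 24 libraries in 1 fit (0.372) or without Radiation library 1, 2 or 3 or Control library 1 or 3 (0.0501 to 0.114, edgeR), and a minimum mean of 10 CPM left it untested. DESeq2 gave an adjusted p of 8.11e-06 and limma-voom 0.0186.

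**Figure D5:**
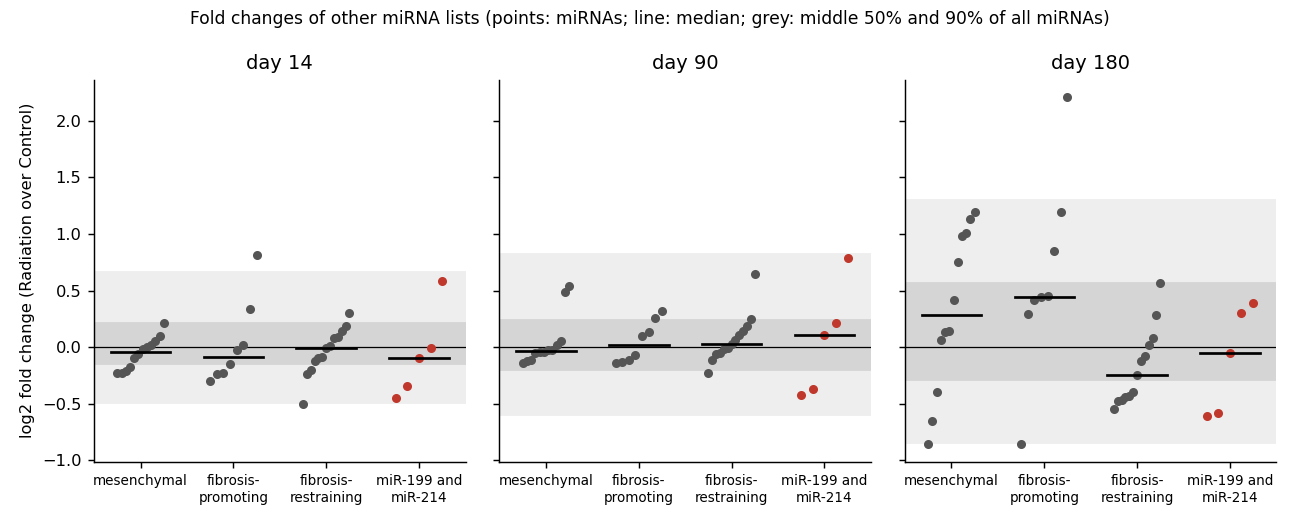
Log2 fold change of Radiation over Control (vertical axis) for each miRNA of 3 lists and for the 5 miR-199 and miR-214 measures (red) at the 3 days, with a line at each median and grey bands for the middle 50% and 90% of all miRNAs tested. At day 180 the medians were 0.28 for the mesenchymal list (-0.07 without Radiation library 1), 0.45 for the fibrosis-promoting list and -0.25 for the fibrosis-restraining list. The median over all miRNAs tested was 0.13.

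Radiation library 1 of day 180, lowest in miR-199 and miR-214, had the highest epithelial, endothelial and haematopoietic sums of that day. Its striated muscle and stratified epithelium sums were not the highest. That library had 80700 CPM of the 9 epithelial miRNAs, against 40400 to 46800 CPM in Radiation libraries 2 to 4 and 49300 to 54200 CPM in Control libraries. It also had 57800 CPM of the endothelial pair, against 37500 to 43100 CPM in the other Radiation libraries and 41600 to 46400 CPM in Control libraries. For the 6 haematopoietic miRNAs it had 62600 CPM, against 41000 to 47700 CPM in the other Radiation libraries and 47200 to 59000 CPM in Control libraries. These sums carry the TMM scaling and are not shares of counts. Over all miRNAs tested this library summed to 1170000 CPM, against 975000 to 1050000 CPM in Control libraries. The lowest Radiation library summed to 916000 CPM. The members of a list did not all go the same way in Radiation library 1. Without it, the day 180 log2 fold change rose for miR-182-5p (0.43 to 0.76), miR-96-5p (-0.12 to 0.10) and miR-183-5p (0.08 to 0.36). That value fell for the other epithelial miRNAs. Among the haematopoietic miRNAs, miR-223-3p rose from -0.05 to 0.13 without Radiation library 1, and miR-142a-5p stayed at 0. The others fell, miR-451a from -0.11 to -0.33 and miR-142a-3p from 0.32 to -0.05. The parts of cell make-up and of scaling in the values of this library were not tested. At day 14 the stratified epithelium list summed to 522 to 585 CPM in Radiation libraries and 554 to 4030 CPM in Control libraries, the highest being Control library 2, which also had the highest miR-199a-5p of that day. Its part in that value was not tested.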

How the data were processed

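Small RNA of 18 to 30 nt was cut from a gel, ligated to adaptors on both ends and amplified by PCR, per the labels' protocols. For each day the authors deposited whole-number counts per mature miRNA and library, raw according to the file headers. They also deposited RPM values, which are the same counts over library totals of 11984009 to 16081430 whose make-up is not stated. The authors' group averages, fractional and so treated as estimated counts among the deposited columns, were not used. The submitters' processing notes name Bowtie2 and the build GRCm38.p6 only. Columns were matched to libraries by name.

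The members and lists were chosen with earlier results of these data known. Every member is named in every comparison, with the 5 most similar miRNAs and up to 3 abundant ones per list. Lists are of miRNAs associated with mesenchyme, fibrosis, endothelium, epithelium, blood, striated muscle and stratified epithelium. miR-199a-3p and miR-199b-3p were 1 row, summed where they differed. Each day was fitted alone over its whole table with edgeR 4.0.16 (R 4.3.3, filterByExpr, TMM, quasi-likelihood F-test, Benjamini-Hochberg, threshold 0.05). SEs were derived from the test statistic and are approximate. Ratios add 0.5 to each count and use exact permutation tests. All 5 measures passed the filter at each day. On data simulated from the day 180 libraries, 37.5% of 2-fold and 93.3% of 4-fold changes were recovered among 542 miRNAs. The simulation changed many miRNAs at once (96 by 2-fold and 89 by 4-fold), which eases the Benjamini-Hochberg cutoff. No library was made to stand apart in it. The shares may thus be too high for a single measure in the real libraries.

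Same-numbered libraries deviated together at day 14 (correlations 0.172 to 0.465) and not at days 90 (-0.224 to 0.355) and 180 (-0.208 to -0.0334). Only the day 14 numbers thus behaved as pairs, and the main tests ignore this pairing. With the replicate block, the adjusted p-values of the measures at day 14 were 0.71 to 0.986 (edgeR). Paired exact sign-flip tests of the ratios at day 14 gave p-values of 0.25 to 0.375, where the smallest possible is 0.125. Alternatives were DESeq2 1.42.0, limma-voom (limma 3.58.1), other scalings and filters, a replicate block and leaving out each library.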

Additional observations from a re-analysis of the deposited data

Results flagged for a closer look

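A library was set apart where its gap to the nearest library of its group was large against the range of the group. This was asked in 54 groups of 4 libraries, and chance alone flags about 5% of groups. The flagged groups, all named here, were about that share. In Control lungs at day 90, miR-199b-5p had 1180 CPM in library 4, against 400 to 432 CPM in the other 3 libraries. In Radiation lungs at day 180, the log2 ratio of miR-214-5p over miR-214-3p was 1.76 in library 1, with 73.5 CPM of miR-214-3p. In Control lungs at day 14, the log2 ratio of miR-214-3p over miR-199a-5p was -2.51 in library 1, with 634 CPM of miR-214-3p, the highest of its group. The causes were not tested.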

How the results depend on the processing

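No alternative brought any of the 5 measures past the adjusted threshold, at any day or between days, and every ratio kept its direction. The lowest adjusted p was 0.0573, for miR-199a-5p at day 180 without Radiation library 1. The counts of all miRNAs called moved more. At day 14 the count was 0, against 1 with DESeq2, 4 with no filter, 1 with all 24 libraries in 1 fit and 0 to 1 leaving out single libraries. At day 90 it was 2, against 5 with upper-quartile scaling, 19 with no filter, 0 with a mean of at least 10 CPM, 19 with DESeq2, 0 with the replicate block, 0 with all 24 libraries in 1 fit and 0 to 7 leaving out single libraries (7 without Control library 4). At day 180 it was 0, against 29 with DESeq2, 21 with no filter, 47 with all 24 libraries in 1 fit and 0 to 5 leaving out single libraries (5 without Radiation library 2). Between days it was 0, against 1, 3 and 8 with DESeq2 for day 90 minus day 14, day 180 minus day 14 and day 180 minus day 90, and 0 to 16 and 0 to 10 leaving out single libraries in the last 2 contrasts (16 without Radiation library 2 of day 180, 10 without Radiation library 1 of day 180). The replicate block changed no call of a measure. At day 14, where the numbers pair, 3 of 4 libraries correlated best with their own number.

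Log2 fold changes near 0 turned sign. For miR-199a-5p at day 14 (-0.01) the value was 0.03 with upper-quartile scaling, 0.02 with a mean of at least 10 CPM, 0 with limma-voom, 0 with the replicate block and -0.09 to 0.15 leaving out single libraries. Leaving out single libraries gave -0.56 to 0.17 for miR-199b-5p and -0.01 to 0.16 for miR-214-5p at day 90, and -0.61 to 0.30 for miR-214-3p at day 180, where the RPM totals, an alternative chosen after seeing the data, gave 0.02. miR-199-3p at day 180 read from the miR-199a-3p row alone was 0.55. For day 90 minus day 14, miR-199b-5p was -0.0018, against 0.08 with RLE size factors, 0.04 with upper-quartile scaling, 0.08 with no filter, 0.08 with DESeq2, 0.12 with limma-voom, 0.15 with the replicate block and -0.08 to 0.67 leaving out single libraries, where miR-214-3p gave -0.21 to 0.52 and miR-199-3p -0.18 to 0.08. For day 180 minus day 90, leaving out single libraries gave -0.12 to 0.42 for miR-199a-5p, -0.35 to 0.07 for miR-199-3p and -0.08 to 0.33 for miR-214-5p. The causes were not tested. With 4 libraries a group and the spread of the day 180 Radiation libraries, changes of 2-fold or less were often not detectable.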
